A study of Mus musculus with 2 samples.

Results

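The cells described here are 342 cells from neurospheres of the mouse glioma line GL261 that stood highest in a score of 5 genes, Lpcat2, Fbn2, Steap3, Prss56 and Fosl1. They are 342 of the 4276 neurosphere cells kept and of the 9327 cells kept over both cultures of the study. The score was the sum of the UMIs (unique molecular identifiers, each a counted RNA molecule) of these genes divided by all other UMIs of the cell, and the top 8% of kept neurosphere cells formed the high-score cells. They were compared with the bottom 50% by score, 2138 comparison cells, all of which had no UMI of any of the 5 genes. Because the score chose the cells, the levels of the 5 genes in them are a description and not a finding.

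GL261 cells are labelled as an astrocytoma line from C57BL/6 mice, and they were grown in DMEM with serum and antibiotics. Adherent cells were collected from flasks, and neurospheres were collected at day 12 after EGF (20 ng per ml), FGF (20 ng per ml) and B-27 had been added to the same medium. Both were trypsinized, frozen in medium with DMSO and sequenced with the 10x Genomics 3' protocol, 1 library for each culture. With 1 library per culture no test was possible, no p-value is given, no difference has a replicate check, and all intervals are 95% intervals that cover counting error only.

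Fosl1 encodes FRA-1, a subunit of AP-1, the dimer of Fos and Jun family proteins that binds DNA at the motif TGANTCA and is induced downstream of growth factor receptors through ERK. Prss56 encodes a secreted serine protease, Steap3 an endosomal reductase that readies iron for transport, Fbn2 the microfibril protein fibrillin-2, and Lpcat2 an acyltransferase that makes platelet-activating factor and membrane phosphatidylcholine. In glioma, AP-1 and C/EBP factors are known for their part in the mesenchymal state, in which tumor cells express Cd44, vimentin, S100 proteins and galectins in place of genes of the oligodendrocyte and neural lineages.

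Fosl1 and Prss56, for which these cells were first named, were found in few of them. In the GENCODE annotation of GRCm38, Lpcat2 (ENSMUSG00000033192) lies on chromosome 8 from 92855339 to 92919279, Prss56 (ENSMUSG00000036480) on chromosome 1 from 87183313 to 87188405 and Fosl1 (ENSMUSG00000024912) on chromosome 19 from 5447547 to 5455946, all on the plus strand. Fosl1 had a UMI in 63 of the 342 high-score cells (18.4%, exact binomial interval 14.5% to 22.9%), and Prss56 had a UMI in 70 cells (20.5%, 16.3% to 25.1%). Lpcat2 had a UMI in 309 cells (90.4%, 86.7% to 93.3%), Fbn2 in 151 cells (44.2%) and Steap3 in 82 cells (24.0%). Lpcat2 supplied 71.7% of the score UMIs of the high-score cells, against 5.68% from Prss56 and 3.23% from Fosl1. The high-score cells are therefore cells led by Lpcat2, and they are called by their score and not by Fosl1 and Prss56. Of the 342 cells, 119 had UMIs of Lpcat2 only, 35 had UMIs of both Fosl1 and Prss56, and 244 had UMIs of neither.

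**Figure D1:**
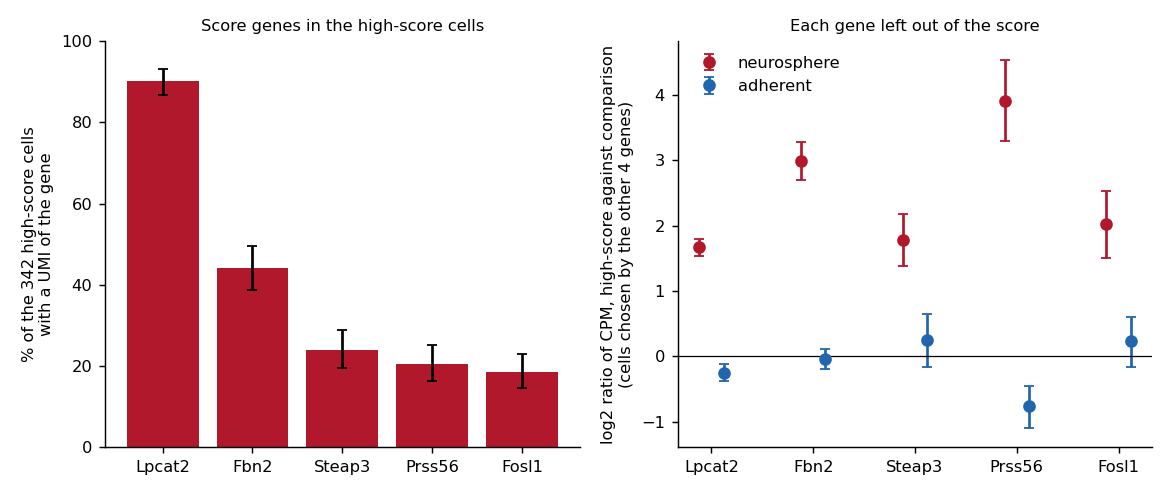
The left panel shows the percent of the 342 high-score neurosphere cells with a UMI of each score gene, with exact binomial intervals, and the right panel shows the log2 ratio of CPM of each gene in cells chosen by the other 4 genes, with exact conditional intervals. Lpcat2 was in 90.4% of the high-score cells and Fosl1 in 18.4%, and in the right panel the 5 neurosphere ratios lie between 1.67 and 3.90 while the 5 adherent ratios lie between -0.77 and 0.25.

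A high-score cell held from 2 to 45 score UMIs, with a median of 8. The score at the threshold was 2.84468 UMIs per 10000 other UMIs in the last cell inside and 2.84042 in the first cell outside, and 42 of the high-score cells rested on only 2 or 3 score UMIs. In all, 2697 kept neurosphere cells (63.1%) had no score UMI, so the bottom 50% is the part of these tied cells that came last in file order. The high-score cells were deeper, with a median of 14933 UMIs and 4524.5 genes against 11205.5 UMIs and 4003.5 genes in the comparison cells. The median share of mitochondrial UMIs was 4.08% against 4.11%, and that of ribosomal protein UMIs was 14.9% against 15.98%. All differences were therefore also computed after thinning each cell to 5000 UMIs and after ranking cells within deciles of their UMI totals. The libraries shared 12 cell barcodes, 9 of them in kept cells of both and 1 of them in a high-score cell.

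Each of the 5 genes was left out of the score in turn, and its level was taken in the cells chosen by the other 4. The 5 genes were put together with results of these data known, so these levels are a description and no independent support that the genes go together. In the top 8% of cells by the other 4 genes, Prss56 was at 16.9 CPM (UMIs of a gene scaled to 1000000 UMIs on the genes left) against 1.13 CPM in the comparison cells, a log2 ratio of 3.90 (3.30 to 4.54). Fbn2 was at 45.7 against 5.78 CPM, a log2 ratio of 2.98 (2.69 to 3.28). Fosl1 was at 10.7 against 2.63 CPM (2.02, 1.502 to 2.53), in 14.04% of the cells chosen without it. Steap3 and Lpcat2 were higher by 1.78 (1.38 to 2.17) and 1.67 (1.54 to 1.80) on the same scale. Leaving out Lpcat2 changed the cells most, since 150 of the 342 cells (43.9%) were then shared, against 290 to 327 cells when any of the others was left out.

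The same was done in the adherent cells, where the values were others and are likewise a description. The 5 genes summed to 382 CPM over all kept adherent cells and to 90.6 CPM over all kept neurosphere cells. In adherent cells chosen by the other 4 genes, Prss56 was at 26.7 CPM against 45.4 CPM in the comparison cells, a log2 ratio of -0.77 (-1.10 to -0.45), and Lpcat2 was at 162 against 193 CPM (-0.25, -0.38 to -0.12). The ratios of Fosl1 (0.23), Steap3 (0.25) and Fbn2 (-0.03) had intervals that span 0. The difference between the libraries in these ratios was not tested, and with 1 library each the culture and the library cannot be told apart.

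High-score cells also lay near each other in the expression of other genes. As the 5 genes were put together with results of these data known, the shares are a description. They are no independent support that the cells form a group. Among the 30 nearest neighbours of each cell, found on 18 principal components of 2000 variable genes without the 5 score genes, high-score cells made up 33.0% on average around a high-score cell and 1.94% around a comparison cell, where 8.0% of all kept cells were high-score cells. For 225 of the 342 cells (65.8%) more than 20% of the neighbours were high-score cells, and for 20 cells none was. After thinning to 5000 UMIs per cell, the average was 31.8%.

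Of 11256 genes with at least 100 UMIs over both sets of cells, 523 were more than 1.5-fold higher in the high-score cells (4.65%) and 689 were more than 1.5-fold lower (6.12%), with 5 CPM added to each level. The median log2 ratio of all these genes was -0.04. Of these, 35 of the higher and 85 of the lower genes passed the minimum of UMIs only through the set of cells where they were high, among them Tnc, Wnt7b, Spp1 and Lcn2 of the higher and Gpr17, Mag, Ltbp1, Aldh1l1 and Erbb4 of the lower, so that counts holding them are not read as support. In the text below, higher and lower mean past this 1.5-fold limit, which is a size and not a test. Lpcat2 decided part of these calls. Of the 139 genes named by rule past the limit, 36 were within it or changed sign when Lpcat2 was left out of the score, while Tm4sf1 (2.07), Hmga2 (2.24) and Igf1 (1.95) among the highest and Matn1 (-2.25) and Cadm2 (-1.38) among the lowest stayed past it.

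Among genes with a UMI in at least 10% of either set of cells, the largest ratio was that of Tm4sf1, a tetraspanin-like surface protein of migrating and mesenchymal cells, at 179 CPM in the high-score cells and 16.1 CPM in the comparison cells, a log2 ratio of 3.13. It had a UMI in 57.0% of the high-score cells and 12.4% of the comparison cells, and in 35.1% and 5.40% when cells were thinned to 5000 UMIs. Hmga2, a chromatin protein of embryonic and tumor cells, was at 450 against 91.8 CPM (2.23) and was spread over 78.7% of the high-score cells. Tnfrsf12a, the receptor of the cytokine TWEAK, was at 75.7 against 10.99 CPM (2.34). Cebpd, a C/EBP transcription factor, was at 135 against 24.3 CPM (2.25). Mmp2, a matrix metalloproteinase, was at 34.1 against 3.78 CPM (2.15), but at a ratio of 0.40 when Lpcat2 was left out of the score. On chromosome 8 Mmp2 (92827291 to 92853420) ends shortly before Lpcat2 starts, in the same orientation, and whether the 2 genes share reads was not tested. Plaur, the receptor of urokinase, was at 44.3 against 6.40 CPM (2.11). Igf1, a growth factor, was at 20.8 against 0.91 CPM (2.13), and Reln, the secreted glycoprotein reelin, was at 68.1 against 12.4 CPM (2.07). Ier3, an early response gene of ERK, was at 144 against 26.6 CPM (2.24), and Ubtd1 was at 76.4 against 14.2 CPM (2.09). These genes were thus carried by between 15.2% (Igf1) and 78.7% (Hmga2) of the high-score cells.

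Other genes among the 15 highest are best known from other tissues. Csn3, the milk protein kappa-casein, was at 150 against 14.3 CPM, a log2 ratio of 3.0, and Tnnt3, a troponin of fast muscle, was at 49.8 against 4.29 CPM (2.56). Cp, the copper-carrying ferroxidase ceruloplasmin of liver and astrocytes, was at 35.8 against 2.07 CPM (2.53). Csn3 and Tnnt3 had UMIs in 40.6% and 17.5% of the high-score cells. Over all kept adherent cells, Csn3 was at 7.39 CPM and Tnnt3 at 0.73 CPM, while Tm4sf1 was at 1070 CPM, Hmga2 at 432 CPM and Tnfrsf12a at 142 CPM there.

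Of the 15 highest ratios, that of Hmox1 rested on a single cell. Hmox1, the heme-degrading enzyme of the oxidative stress response, was at 299 against 51.6 CPM (2.43), but 1 cell held 1179 of its 1693 UMIs. Without that cell, the level was 90.7 CPM and the log2 ratio 0.76. In that cell Hmox1 made up 5.40% of 21834 UMIs, and the cell also held 45 UMIs of the cystine transporter Slc7a11, 36 of Il11, 36 of Plaur and 7 of Fosl1, with none of Lpcat2 or Krt8. For Il11, a cytokine of the IL-6 family at 27.4 against 0.65 CPM (2.52), the same cell held 23.2% of the UMIs, and the log2 ratio was 2.21 without it. For the other 13 of the 15 highest genes, leaving out the cell with most UMIs of the gene left log2 ratios from 1.92 (Plaur) to 3.07 (Tm4sf1).

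**Figure D2:**
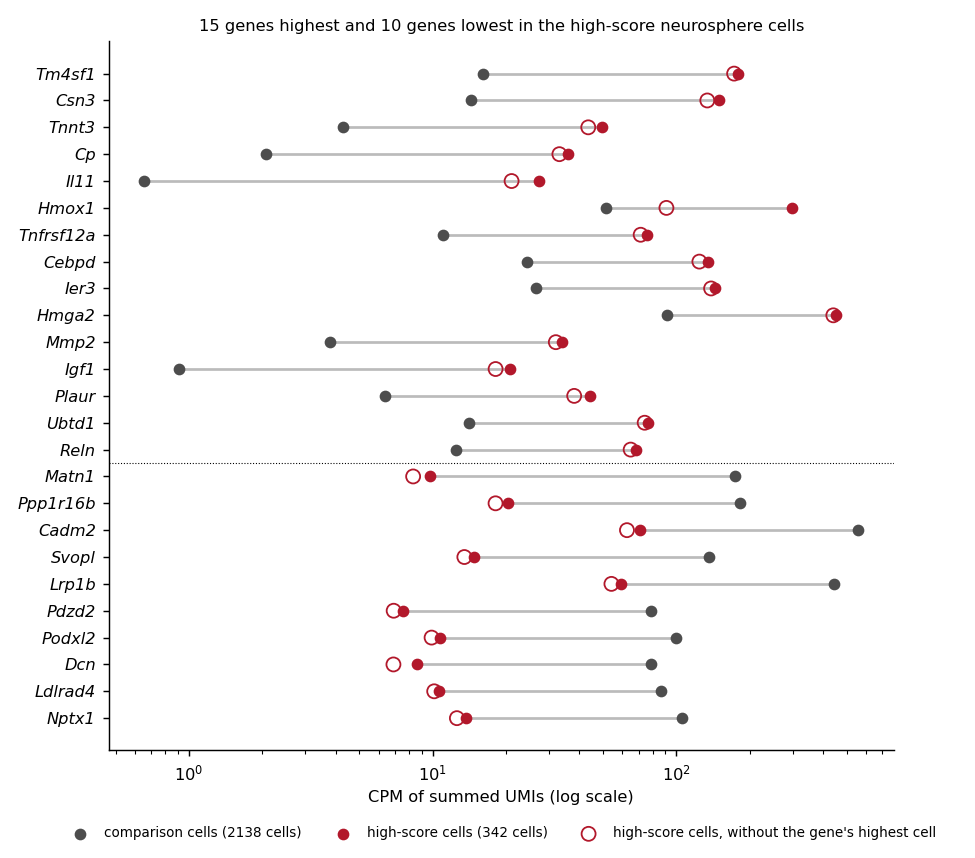
The levels (CPM of summed UMIs, log scale) of the 15 genes with the highest and the 10 genes with the lowest ratio are shown for the 342 high-score cells, filled red, and the 2138 comparison cells, dark grey, with open circles for the high-score cells without the 1 cell that held most UMIs of the gene. Only Hmox1 moves far, from 299 to 90.7 CPM, while Tm4sf1 stays near 179 CPM and Matn1 lies near 9.71 CPM against 175 CPM.

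The genes with the lowest ratios included genes of cartilage and of synapses. Matn1, a matrix protein of cartilage, was at 9.71 CPM in the high-score cells and 175 CPM in the comparison cells, a log2 ratio of -3.61. Cadm2, a synaptic adhesion protein, was at 70.9 against 558 CPM (-2.89), and Lrp1b, a very large lipoprotein receptor of neural cells, was at 59.5 against 445 CPM (-2.80). Nptx1, a neuronal pentraxin of synapses, was at 13.8 against 105 CPM (-2.56), and Dcn, the small proteoglycan decorin, was at 8.65 against 79.1 CPM (-2.62). The others were Ppp1r16b, a phosphatase regulator (-2.89), Svopl, a transporter-like protein (-2.83), Pdzd2 (-2.74), Podxl2 (-2.74) and Ldlrad4, a brake on TGF-beta signaling (-2.56). Cadm2 had a UMI in 33.3% of the high-score cells and 74.5% of the comparison cells, and in 16.8% and 62.0% after thinning, so that the deeper cells had the lower share.

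The mesenchymal genes of glioma were higher as a group. Of 22 genes, 20 were measured, of which 14 were higher and 0 lower, with a median log2 ratio of 0.94 against -0.04 over all genes. Of the 14, Tnc (58 and 56 UMIs) passed the minimum through the high-score cells alone, and after thinning 11 of 16 measured genes were higher. Lgals3, the carbohydrate-binding protein galectin-3, was at 841 against 204 CPM (2.02), with quartiles over the high-score cells of 128 and 1023 CPM around a median of 357 CPM. Tagln2, an actin-binding protein, was at 553 against 154 CPM (1.81), S100a10 at 612 against 195 CPM (1.63), and Emp3, a membrane protein, at 534 against 182 CPM (1.52). Vim, the intermediate filament vimentin, was at 2741 against 1448 CPM (0.92), and Cd44, the hyaluronan receptor, was at 86.5 against 42.2 CPM (0.95). Cebpb, a C/EBP factor, was at 231 against 107 CPM (1.07). S100a6 was at 1260 against 450 CPM (1.48), with 11.03% of its UMIs in 1 cell and a ratio of 1.31 without it. Anxa1, Anxa2, Fn1 and Stat3 lay between -0.05 and 0.55. When Lpcat2 was left out of the score, 11 of the 20 genes were higher, with a median of 0.71, and Cebpb (0.49) was within the limit. The 5 genes that mark adherent cells of this line, of which 0 passed the minimum of UMIs, summed to 31.8 CPM in the high-score cells and 3.31 CPM in the comparison cells, with 67 of their 180 UMIs in the former from 6 cells. Over all kept cells, Lgals3 was at 391 CPM in the neurosphere library and 4782 CPM in the adherent library, S100a6 at 753 and 7353 CPM, and Lgals1, galectin-1, at 2752 and 10663 CPM. The part of cells with UMIs of adherent markers in this result was not tested.

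The keratin Krt8, which with its partner Krt18 builds the filaments of simple epithelia, was lower. It was at 955 CPM in the high-score cells and 3415 CPM in the comparison cells, a log2 ratio of -1.83. It was within the limit, at -0.17, when Lpcat2 was left out of the score. Of the high-score cells, 151 (44.2%, exact binomial interval 38.8% to 49.6%) had no UMI of Krt8, against 24.6% (22.8% to 26.5%) of the comparison cells. The Krt8-free high-score cells were shallower, with a median of 10978 UMIs against 18352 UMIs in those with a UMI. After thinning, 39.2% of the high-score cells and 67.0% of the comparison cells had a UMI of Krt8. In the list of 6 genes that mark neurospheres of this line, 4 were lower (Matn1, Krt18, Krt8 and the Notch ligand Dll3) and 0 higher, while Wnt6 (230 against 266 CPM) and Ptgds (900 against 1068 CPM) differed by -0.20 and -0.25 on the log2 scale. Krt18 rested on 25 UMIs in the high-score cells, and with Lpcat2 out of the score its log2 ratio was 0.05.

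Genes of the oligodendrocyte lineage were lower as well. Of 14 genes, 13 were measured, of which 10 were lower and 0 higher, with a median of -1.03. Over all genes, 6.12% were lower. Of the 10, Gpr17 (14 and 550 UMIs) and Mag (7 and 120 UMIs) passed the minimum through the comparison cells alone. The count of 10 is therefore not read as support. After thinning 8 of 11 measured genes were lower, and within deciles of UMIs 8 of 13. Cnp, an enzyme of myelinating cells, was at 131 against 701 CPM (-2.38), and Bcas1, a gene of newly formed oligodendrocytes, at 103 against 369 CPM (-1.79). Olig1 and Olig2, transcription factors of the lineage, were at 739 against 1513 CPM (-1.03) and 286 against 519 CPM (-0.85). Sox10, a factor of the whole lineage, differed by -0.23. Of genes linked to the precursor stage, Cspg4 and Pdgfra differed by -0.37 and 0.03, and Lhfpl3 was lower, at 94.6 against 157 CPM (-0.71), a call lost after thinning (-0.27) and within deciles of UMIs (-0.30). Olig2 was at -0.50 without Lpcat2 in the score. Gpr17, a receptor of committed precursors, was at 2.47 against 20.0 CPM (-1.74).

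Of 15 cartilage genes, 9 were measured, of which 7 were lower and 1 higher, with a median of -1.45. Over all genes, 6.12% were lower. Col9a1 was at 405 against 1136 CPM (-1.48), Col11a1 at 1172 against 2721 CPM (-1.21) and Col11a2 at 106 against 321 CPM (-1.55). Col2a1, the main collagen of cartilage, was the 1 gene that was higher, at 140 against 59.8 CPM (1.16). It went the other way when Lpcat2 was left out of the score (-0.15). The median of the list was -0.75 when cells were ranked within deciles of their UMI totals, and 5 of 10 measured genes were then lower. In that ranking Comp (-0.53, from -1.45) and Sox6 (-0.51, from -0.74) were within the limit. Both fibroblast markers measured, Dcn and Col1a1, were lower, and the 5 fibroblast markers summed to 105 CPM in the high-score cells and 467 CPM in the comparison cells.

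**Figure D3:**
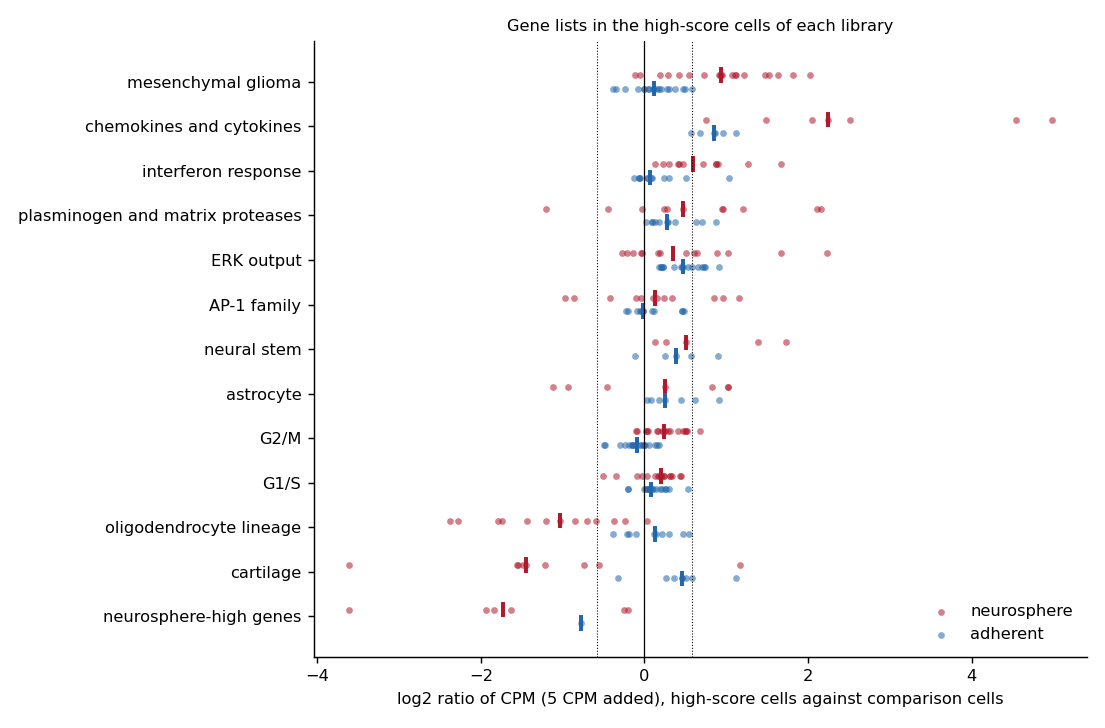
Each point is a gene with at least 100 UMIs over the high-score cells and the comparison cells, placed at its log2 ratio (5 CPM added), for neurosphere cells in red and adherent cells in blue, with thick bars at list medians and dotted lines at the 1.5-fold limit. In neurosphere cells the mesenchymal list has its median at 0.94 and the oligodendrocyte list at -1.03, while in adherent cells these medians are 0.12 and 0.13.

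Of 12 measured AP-1 family genes, Maff (1.15), Junb (0.96) and Atf3 (0.86) were higher, and Fos (-0.97) and Fosb (-0.86) were lower. Fos was at 86.7 CPM in the high-score cells and 175 CPM in the comparison cells, and Junb, a Jun family partner of Fos proteins, was at 94.9 against 46.4 CPM. Jun itself was at 173 against 233 CPM (-0.42) and Fosl2, a close relative of Fosl1, at 17.6 against 14.2 CPM (0.24). Without Lpcat2 in the score, Fos (-0.29) and Fosb (-0.42) were within the limit, and 3 genes of the family were higher and 0 lower. The call of Atf3 was lost against all other cells (0.27), in the top 5% (0.58) and without Fosl1 (0.42) or Steap3 (0.47) in the score. Of the 11 immediate early genes measured, Klf4 (1.27), Klf6 (0.94), Ier2 (0.75) and Ier5 (0.59) were higher and Egr1 (-0.70) was lower, the last within the limit without Lpcat2 in the score (-0.17). Ier2 (0.54) and Ier5 (0.49) were within it against all other cells.

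The AP-1 motif was looked for on both strands of promoter windows from 250 bases before to 50 bases after the start, as given by RefSeq for GRCm38.p6. TGANTCA, with any base at N, was in 8.97% of 27025 genes with a window. It was in 4 of the 10 genes among the 15 highest that had one, Cp, Igf1, Il11 and Plaur. The form was TGATTCA in Cp, TGAATCA in Igf1, TGAGTCA in Il11 and TGACTCA in Plaur. Of the 10 lowest genes 6 had a window, and of the score genes other than Fbn2, which was not searched, 3 had one, and it was in 0 of these. Il11, Igf1 and Cp had only 18, 25 and 57 UMIs in the comparison cells and passed the minimum of UMIs through the high-score cells, so the count of 4 is not read against the share over all genes. The stretches of Il11 and Plaur are printed as examples, with the motif in capitals, 98 and 69 bases before the start. They lie at chr7:4778222-4778250 on the minus strand and at chr7:24462403-24462431 on the plus strand of GRCm38.p6, and a match of letters is a description and not a binding site.
Il11: aggagggagggTGAGTCAggatgtgtcag
Plaur: acccctggagcTGACTCActctttagcaa

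Genes that ERK signaling induces or that dampen it were higher in part. Of 14 measured genes, 6 were higher and 0 lower, with a median of 0.35, where 4.65% of all genes were higher. Over the 20 alternatives, 4 to 6 were higher. Phlda1 (0.61) was within the limit without Lpcat2 (0.34) or Fbn2 (0.53) in the score. It was also within it in the top 12% (0.50) and against all other cells (0.51). Spry4 (0.64) was within it without Steap3 (0.57) or Fbn2 (0.36) and in the top 12% (0.56). Dusp6, a phosphatase that switches off ERK, was at 142 against 41.0 CPM (1.67), Spry2, a feedback inhibitor of receptor tyrosine kinases, at 153 against 72.8 CPM (1.02), and Etv4, a transcription factor, at 36.4 against 17.4 CPM (0.89). Among ligands and receptors of the EGF family, Hbegf was at 64.1 against 23.9 CPM (1.26), Tgfa at 27.5 against 63.7 CPM (-1.08) and Erbb4 at 1.06 against 4.26 CPM (-0.61, and -0.40 without Lpcat2 in the score). Tgfb1 was at 15.9 against 5.39 CPM (1.01, and 0.55 without Lpcat2 in the score) and Tgfb2 at 20.8 against 41.7 CPM (-0.85).

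The cytokines and chemokines measured were all higher, but most were in few cells. Lcn2, the iron-binding protein lipocalin-2, was at 165 against 0.36 CPM (4.99), and Ccl2, a chemokine that draws monocytes, at 201 against 3.86 CPM (4.54), in 9.65% and 7.02% of the high-score cells. A single cell held 22.9% of the Lcn2 UMIs and 47.3% of the Ccl2 UMIs, and the ratios were 4.63 and 3.65 without it. When Lpcat2 was left out of the score, Lcn2 had a ratio of 2.93, while Ccl2 (0.21) and Csf1 (0.22) were within the limit. All but 1 of the 106 UMIs of Cxcl2 came from 1 cell, so that no level is read for it. Spp1, osteopontin, was at 27.5 against 2.84 CPM (2.05), Il33 at 22.2 against 4.73 CPM (1.49) and Csf1 at 10.8 against 4.33 CPM (0.76). Of the 15 genes, only 7 passed the minimum of UMIs, and Lcn2, Il11, Spp1 and Cxcl2 did so through the high-score cells, so the 7 of 7 is not read against the background. Of 12 interferon response genes 6 were higher, led in level by Bst2 (tetherin) at 965 against 400 CPM (1.26) and Isg15 at 573 against 309 CPM (0.88, and 0.54 without Lpcat2 in the score). Cxcl10 (1.66) had 56.8% of its UMIs in 1 cell and a ratio of 0.58 without it, and 4 of the 12 genes were higher when each gene was taken without its highest cell.

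Other genes of the families of the score genes were mixed. The 9 measured genes of phospholipid remodelling, which include Lpcat1 (32.1 against 32.4 CPM) and Lpcat3 (46.9 against 59.3 CPM), were all within the limit. Of the 9 microfibril and elastic fibre genes measured, Emilin1 (1.59), Ltbp3 (0.68) and Mfap2 (0.63) were higher and Ltbp1 (-1.17) was lower. Of 11 iron genes, the relative Steap1 (1.61), the ferritin heavy chain Fth1 (2569 against 1180 CPM, 1.12), Slc11a2 (0.59) and Hmox1 were higher. Without Lpcat2 in the score Ltbp3 (0.55), Mfap2 (0.22) and Slc11a2 (0.18) were within the limit. Of 11 proteases and inhibitors, Mmp2, Plaur, Timp2 (1.21), Timp3 (0.96, and 0.52 without Lpcat2 in the score) and Timp1 (0.95) were higher and Mmp15 (-1.20) was lower.

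The cell cycle lists differed little. Of 18 genes of G1/S none was past the limit, and of 18 genes of G2/M only Ube2c was higher (0.68), a call lost when cells were ranked within deciles of UMIs (0.23). Mki67 was at 56.7 against 60.5 CPM and Top2a at 290 against 283 CPM. In the integrated stress response, Slc7a11 (1.69), Nupr1 (1.22) and Ddit3 (1.16) were higher and Ddit4 (-0.81, and -0.42 after thinning) was lower of 15 genes. Slc7a11 had 37.5% of its UMIs in the cell highest in Hmox1, and its ratio was 1.17 without it. Of the neural stem genes, Fabp7 (1.73) and Msi1 (1.39) were higher and Nes (0.51) and Sox2 (0.27) were not, and 1 cell held 29.1% of the Fabp7 UMIs. Of 7 astrocyte genes, Gja1 (1.02), Slc1a3 (1.02) and Sparcl1 (0.82) were higher, and Glul (-1.12) and Aldh1l1 (-0.93) were lower. Without Lpcat2 in the score, Slc1a3 (0.48) and Sparcl1 (0.05) were within the limit.

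In further lists the counts in both directions were small. Of 7 integrins, Itga1 (1.31), Itga4 (0.95) and Itgav (0.69, and 0.24 without Lpcat2 in the score) were higher and Itgb8 (-1.66) was lower. Of 10 YAP and TEAD targets, Axl (1.32) and Dlc1 (1.02) were higher, and Amotl2 (-0.89) and Lats2 (-0.73) were lower. Without Lpcat2 in the score Dlc1 went the other way (-0.18) and Lats2 was within the limit (-0.50), as it was after thinning (-0.39). Of 9 Notch genes, the targets Hes5 (0.70) and Nrarp (0.65) were higher, and the ligands Dll1 (-1.68) and Dll3 (-1.63) were lower. Hes5 and Nrarp were within the limit without the highest cell of each (0.53 and 0.45), in the top 12% and without Fbn2 in the score. Of 11 genes of TGF-beta and BMP signaling, Pmepa1, Tgfb1, Id2 and Id3 were higher, and Tgfb2 and Id1 were lower, but Id1 (-0.13) and Id2 (0.24) were within the limit without Lpcat2 in the score and Tgfb2 (-0.49) within deciles of UMIs. Of 4 Wnt genes, Wnt7b (1.32) was higher, with 62 and 38 UMIs and through the high-score cells alone past the minimum, and Rnf43 (-1.72) was lower. Of 8 hypoxia genes, Slc2a1 (0.95) was higher and Ankrd37 (-0.76) was lower. Of 13 p53 genes and cell cycle inhibitors, Phlda3 (0.86) and Cdkn1a (0.70) were higher, and Btg2 (-1.29) and Trp53inp1 (-0.72) were lower. Without Lpcat2 in the score Ankrd37 (-0.07) and Btg2 (-0.32) were within the limit, as were Cdkn1a (0.54) and Trp53inp1 (-0.46) against all other cells.

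Markers of immune and endothelial cells were scarce. The 8 immune markers summed to 11.3 CPM in the high-score cells and 4.26 CPM in the comparison cells, mostly from Cd68 (9.18 against 2.44 CPM), and 5 of the 8 were at 0, including Ptprc, the marker of all leukocytes. The 4 endothelial markers summed to 3.0 and 3.71 CPM. The 5 genes that mark adherent cells of this line, S100a4, Ly6a, Klk8, Vgf and Plscr2, summed to 31.8 CPM in the high-score cells and 3.31 CPM in the comparison cells, and 74 of the 342 high-score cells and 64 of the 2138 comparison cells had a UMI of at least 1 of them. Of their 180 UMIs, 67 came from the 6 cells with over 5 each. Over all kept adherent cells S100a4 alone was at 346 CPM. The part of these cells in the results above was not tested.

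Levels of 3 genes described above were also taken in bands of the score. They had been named for their gap between the high-score and comparison cells, so the order of the end bands is set by that choice. From the top 2% of cells (86 cells) over the bands of 2% to 4%, 4% to 8%, 8% to 16%, the other cells with a score UMI (895 cells) and the 2697 cells with none, Krt8 was at 146, 509, 1512, 2283, 3097 and 3447 CPM. Tm4sf1 ran from 309 through 176, 127, 83.8 and 41.1 to 16.3 CPM. Hmga2 was at 628 CPM in the first band, 319 CPM just below the threshold and 88.9 CPM in cells without a score UMI. The 8% to 16% band, which is in neither set, lay between the sets for these 3 genes. Tm4sf1 and Krt8 thus had their extremes in the top 2%, which had a median of 13860.5 UMIs, against 11424 UMIs in the cells with no score UMI.

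**Figure D4:**
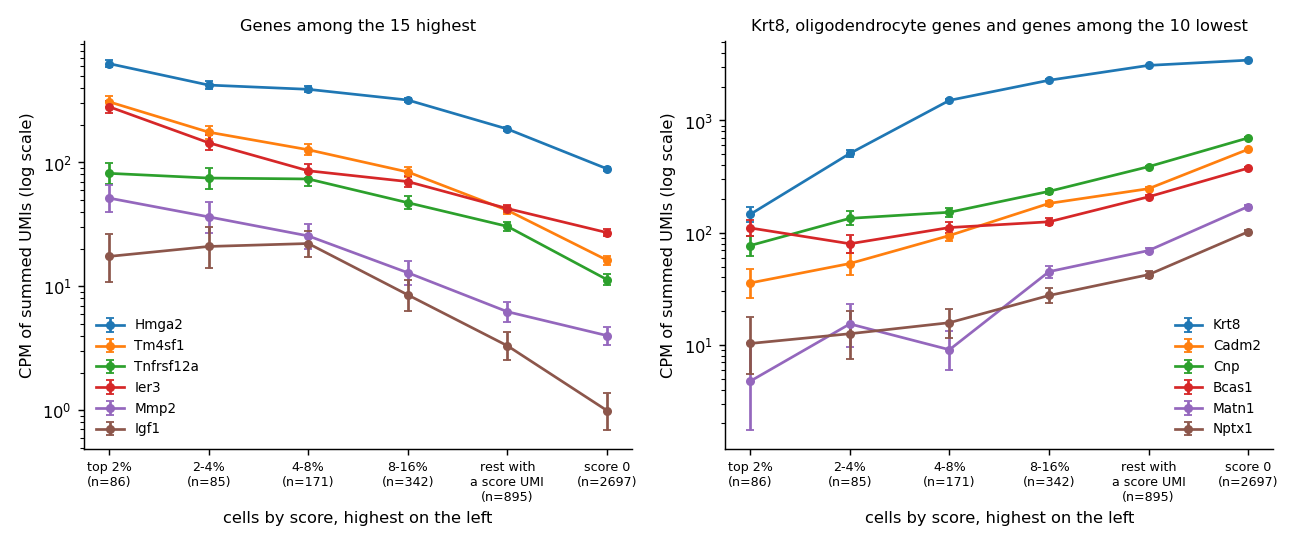
The level (CPM of summed UMIs, log scale, with exact Poisson intervals) is shown over 6 bands of neurosphere cells ranked by score, from the top 2% on the left to the cells with no score UMI on the right, with the number of cells under each band. Tm4sf1 goes from 309 to 16.3 CPM and Krt8 from 146 to 3447 CPM, with intermediate levels in between.

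The 98 high-score cells with a UMI of Fosl1 or Prss56 were set beside the 244 with neither. The 98 cells were deeper, with medians of 18526 and 13798.5 UMIs, which by itself makes a UMI of a rare gene more likely. Cells with neither entered only through Lpcat2, Fbn2 or Steap3, so the split follows the score genes and its differences are a description. Of the genes below, Mmp2, Col2a1 and Krt8 were those not past the limit in the same direction without Lpcat2 in the score. Plaur was at 98.4 CPM with either gene and 16.6 CPM with neither, and Il11 at 66.6 and 7.21 CPM. Without the cell that held most UMIs of the gene, the levels with either gene were 80.6 CPM for Plaur and 48.4 CPM for Il11. Cp was at 27.1 and 40.3 CPM, Igf1 was at 41.6 and 10.1 CPM, Lgals3 at 1422 and 543 CPM, and Atf3 at 59.9 and 17.4 CPM. Dusp6 (135 and 145 CPM) and Spry2 (149 and 155 CPM) were near the same level in both. Cebpd was at 109 and 148 CPM. Mmp2 (22.4 and 40.1 CPM) was lower with Fosl1 or Prss56, as were Col2a1 (45.3 and 189 CPM), Fabp7 (80.2 and 212 CPM, or 139 CPM without the 1 cell that held most of its UMIs) and Mbp, a myelin protein (14.6 and 84.4 CPM). Krt8 was higher, at 1469 against 691 CPM.

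**Figure D5:**
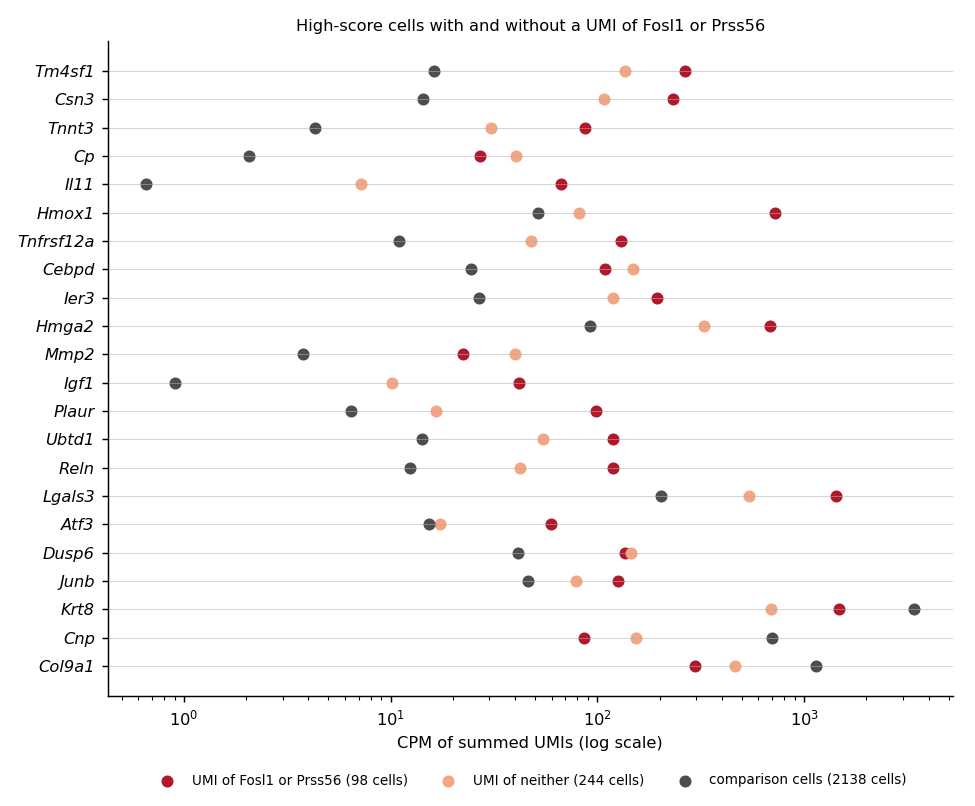
The levels (CPM of summed UMIs, log scale) of 22 genes are shown for the 98 high-score cells with a UMI of Fosl1 or Prss56, the 244 high-score cells with neither and the 2138 comparison cells. Il11 lies at 66.6, 7.21 and 0.65 CPM and Dusp6 at 135, 145 and 41.0 CPM in this order.

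The same score was applied to the 5051 kept adherent cells, where the top 8% held 404 cells and the bottom 50% held 2525 cells. Of 10467 genes measured, 200 were higher (1.91%) and 18 lower (0.172%). These counts were not stable, with 33 higher and 42 lower without Fbn2 in the score and from 15 to 475 higher over the alternatives, and the overlap below rests on the 200. Of the 497 genes that were higher in the neurosphere high-score cells and measured in both libraries, 43 were also higher in the adherent ones (8.65%, against 1.71% of all 10027 genes measured in both), which is 25.1% of the 171 adherent genes. Il11 (1.12), Hmga2 (0.95), Cp (0.80), Reln (0.69) and Mmp2 (0.63) were among these 43, while Tm4sf1 (0.34), Tnfrsf12a (0.26), Plaur (0.29) and Igf1 (0.02) were within the limit. Of the 458 genes that were lower in the neurosphere high-score cells, 4 were lower (0.873%, against 0.160% of all) and 9 were higher (1.97%) in the adherent ones. The mesenchymal list, with 14 of 20 genes higher in neurosphere cells, had 1 of 19 genes higher (Cd44) and a median of 0.12 in adherent cells. The oligodendrocyte list had 0 of 10 genes past the limit, with a median of 0.13, and in the cartilage list Col2a1 (1.12) was higher and none was lower. In the ERK list 5 of 16 genes were higher, with a median of 0.47, among them Dusp6 (0.65). The adherent comparison cells were not free of the score genes, with Lpcat2 at 78.1 CPM and Fbn2 at 46.5 CPM, so the score genes differed by a smaller ratio there, although by more CPM (1091 against 170 CPM, beside 591 against 0 CPM in neurosphere cells). The differences between libraries were not tested.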

How the data were processed

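The authors deposited raw UMI counts per gene and cell for each library, with 32285 genes in 4951 neurosphere and 5764 adherent cells, 82832873 and 68531063 UMIs in all. The submitters' processing notes name Cell Ranger 7.0.1 and mm10, and the annotation and intron setting are not given in the sources used here. The 13 mitochondrial and 101 ribosomal protein genes were removed, and cells with at least 1000 UMIs and 2250 genes (adherent: 1250) were kept. No doublets were removed, and cells over the 95th percentile of UMIs were left out as an alternative.

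UMIs were summed over cells and given as CPM. Log2 ratios had 5 CPM added, except those of score genes left out in turn. Genes needed 100 UMIs over both sets. Named genes were the 15 highest and 10 lowest detected in at least 10% of 1 set of cells, the score genes, and list genes over 1.5-fold. Other list genes were named after their values were seen. A gene of 1 list is counted in its list but not reported here. The members and gene lists were chosen with earlier results of these data known. Thinning to 5000 UMIs left out 3 high-score and 65 comparison cells. As all cells are of 1 line, the level that free RNA gives could not be measured. Ratios and intervals were tested on simulated data. In GENCODE vM21, 32158 gene identifiers were found. The work was done in scipy 1.17.1, scikit-learn 1.9.0 and numpy 2.4.6 (Python 3.11.15), and edgeR 4.0.16 under R 4.3.3 gave TMM factors.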

Additional observations from a re-analysis of the deposited data

Results flagged for a closer look

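With the same score, 4 genes named by the rule were past the 1.5-fold limit in opposite directions in the 2 libraries, and the differences were not tested. Cadm2 had log2 ratios of -2.89 in neurosphere and 0.86 in adherent cells, Pdzd2 had -2.74 and 0.70, Egr1 had -0.70 and 0.75, and Aldh1l1 had -0.93 and 0.62. Cadm2 was at only 22.7 CPM in the adherent high-score cells and 10.2 CPM in their comparison cells, and Aldh1l1 at 7.87 and 3.38 CPM.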

How the results depend on the processing

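No paired analysis was possible because each culture has 1 library. Of 139 named genes past the 1.5-fold limit, between 103 and 139 stayed past it under 20 alternatives, the lowest when Lpcat2 was left out of the score, where 5 changed sign: Dlc1 (-0.18), Krt18 (0.048), Col2a1 (-0.15), Cxcl10 (-0.00) and Cxcl2 (-0.74). Among the others then within the limit were Timp3, Mfap2, Ltbp3, Slc11a2, Itgav, Lats2, Id1, Id2, Tgfb1, Olig2, Ankrd37, Btg2, Isg15 and Erbb4. Under no other alternative did one change sign. Thinning lost 6 calls and ranking within deciles of UMIs lost 9, among them Lats2, Ddit4, Ier5, Tgfb2, Ube2c and Trp53inp1. In neurosphere cells, 193 genes were higher and 266 lower past 2-fold, and with 1 CPM added 1089 were lower. The other counts moved by less than 1.5 times, including 3 alternatives chosen after seeing the data: all cells with no score UMI as comparison (548 higher, 675 lower), high-score cells with at least 4 score UMIs (542 and 825), and each gene without its highest cell (465 and 811). The score genes summed to 591 CPM, and to 743 CPM in the top 5%, 463 CPM in the top 12% and 612 CPM when ranked within deciles of UMIs. The share of high-score cells among neighbours of high-score cells was 35.1% with 15 neighbours, 31.8% after thinning, 26.6% for the top 5% and 35.9% for the top 12%. In adherent cells the counts were less stable than the 200 higher and 18 lower given above. They were 415 and 50 for the top 5%, 475 and 136 with 1 CPM added, 389 and 37 without Lpcat2, 33 and 42 without Fbn2, 15 and 1 past 2-fold, 130 and 33 with TMM scaling (79.8% of calls higher, against 91.7%), and 118 and 10 against all other cells. For the top 12%, 127 were higher. After thinning 72 were lower, within deciles 29, and with the mean of each cell's CPM, without Prss56 and without Steap3 28 each. The cause was not tested. At this depth, genes with under 100 UMIs, among them 8 of the 15 cytokines, could not be measured, and with 1 library per culture nothing here separates culture from library.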
